A study of Oryctolagus cuniculus with 34 samples.

Results

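The membrane repair genes described here are 5 annexins, ANXA1, ANXA2, ANXA4, ANXA5 and ANXA6, and the ferlin gene DYSF, which encodes dysferlin. They were taken by name from the count tables of a bulk RNA-seq study of the supraspinatus of rabbits, a shoulder muscle of the rotator cuff, and all 6 were found, 1 entry each, among 18176 genes. Every one of the 6 passed the filter on low counts in each fit.

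Annexins are calcium-dependent proteins that bind the acidic phospholipids of membranes, and dysferlin is a membrane-anchored calcium sensor of muscle fibres. When a fibre is torn, calcium flows in, dysferlin-bearing membrane is brought to the lesion and annexins gather there into a cap that seals it. Loss of human dysferlin causes limb-girdle muscular dystrophy, and several annexins are also abundant in fibroblasts, macrophages and other mononuclear cells.

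In the long term, 5 muscles had been repaired and given a matrix gel, 5 had been repaired only and 10 were uninjured. In the short term, 5 muscles had the repair with the gel, 5 had the repair only and 4 had the injury only. The gel was made from the extracellular matrix of a tissue. The labels give no strain, sex, age, kind of injury or length of either term, and no library of an uninjured muscle is labelled short term. Animal codes in the file names join each operated long-term muscle to 1 uninjured muscle, so the uninjured group may come from the operated animals.

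The long-term libraries held 12582302 to 15019158 counts and the short-term libraries 26904529 to 32313295 counts. Term cannot be told apart from this difference in depth, or from the different column headers that the files of each term carry. Levels are library-size-adjusted counts (CPM), scaled over all 34 libraries with edgeR's trimmed mean of M-values (TMM), and they are compared between groups and not between genes, since no gene lengths were used. All 11 myofibre marker genes in the files were detected in every group, with summed levels of 51378.7 to 320185.1 CPM per library. Some libraries lay apart from their groups. In the short term, repair replicate 4 had the lowest fibroblast marker sum of its group, 1287.6 CPM, repair replicate 5 had the highest, 84185.1 CPM, and injury replicate 3 had 8647.7 CPM, against at most 2191.7 CPM in the other injury libraries. In the long term, gel replicate 1 had the smallest TMM factor of all libraries, 0.725, with 10.1% of its counts from the actin gene ACTA1.

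**Figure D1:**
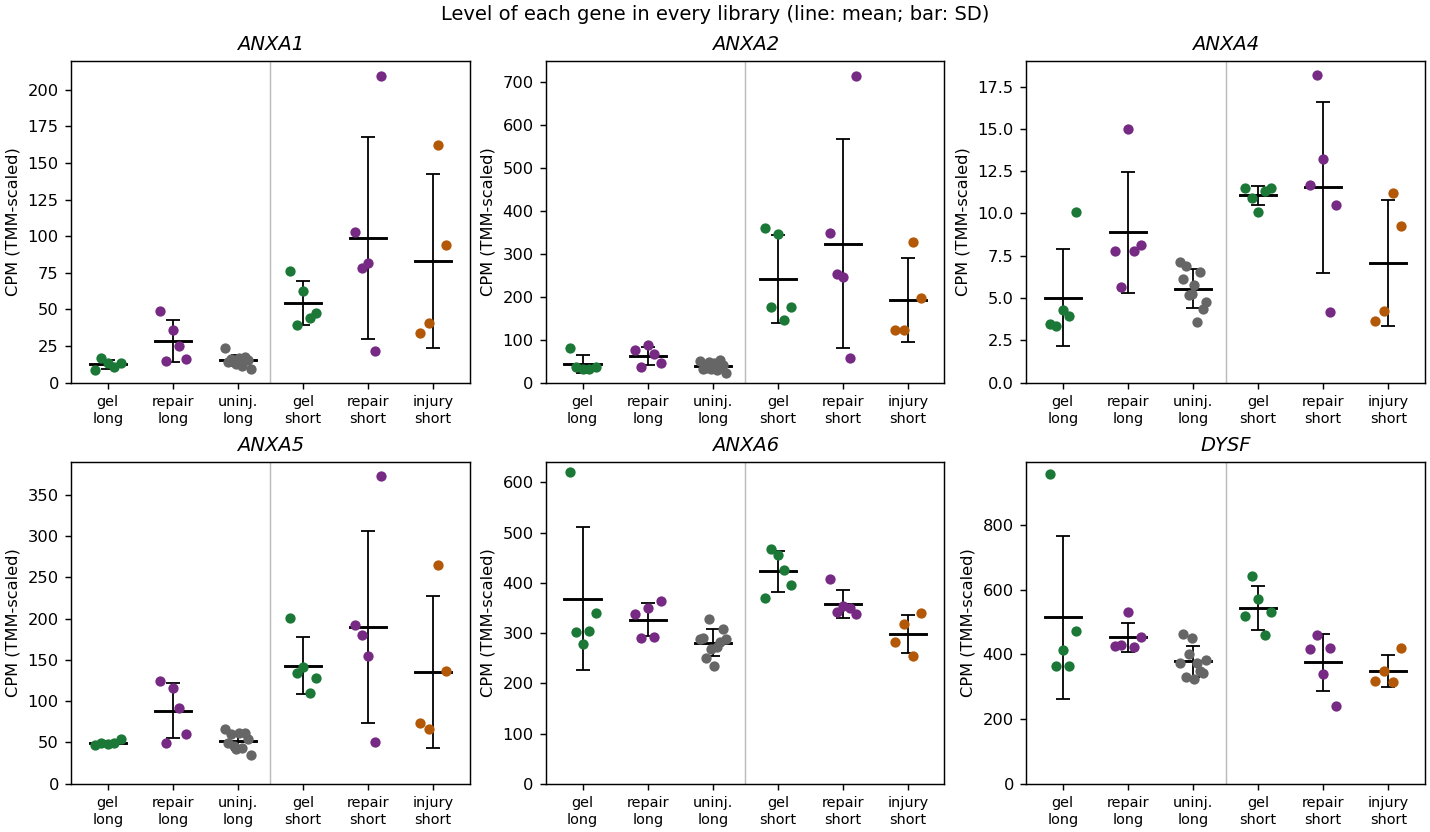
Level of each gene in CPM, TMM-scaled, in every library of the 6 groups, with the mean as a line and the SD as a bar. ANXA1, ANXA2 and ANXA5 were spread most widely in the short-term repair group, where repair replicate 5 reached 209.6, 714.1 and 372.4 CPM, while ANXA6 and DYSF stayed within narrower bands except for long-term gel replicate 1.

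In repaired long-term muscle without gel, ANXA5 was higher than in uninjured muscle. ANXA5 is a small annexin that forms a protein lattice on phosphatidylserine. Its level was 123.8, 49.0, 116.5, 91.9 and 60.7 CPM in the 5 repair libraries, against a lowest of 34.5, a median of 52.0 and a highest of 65.9 CPM in the 10 uninjured libraries. Repair replicates 1, 3 and 4 lay above every uninjured library, and replicates 2 and 5 lay within their range. The fitted log2 difference was 0.79 (SE 0.19), a fold of 1.73, with an adjusted p of 0.0383 by edgeR's quasi-likelihood test with Benjamini-Hochberg adjustment. It was the only one of the 6 genes past the threshold of 0.05, beside 0.965% of all 11605 genes tested that were called higher and 1.01% called in either direction. DESeq2 called ANXA5 as well, together with ANXA1, beside 2.02% of all genes. With the animal as a block the log2 difference was 0.74 with an edgeR adjusted p of 0.561, where 0% of all genes were called. With limma voom the adjusted p was 0.0697, where 0.233% of all genes were called. Leaving out 1 library at a time kept the call in 4 of 15 fits, those without repair replicate 2 or 5 or uninjured replicate 1 or 8, and lost it in the other 11, where the log2 difference was as low as 0.62.

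ANXA1, which inhibits phospholipase A2 and restrains inflammation besides binding membranes, had a level of 48.7, 14.8, 36.2, 24.9 and 16.5 CPM in the repair libraries, against a lowest of 9.11, a median of 15.0 and a highest of 23.5 CPM in uninjured muscle. ANXA2, which pairs with S100A10 in a tetramer that binds actin and membrane, had 76.2, 35.6, 86.7, 67.8 and 45.3 CPM in the repair libraries, against 22.6, 37.4 and 52.4 CPM as the lowest, median and highest in uninjured muscle. For both genes the 3 repair libraries above the uninjured range were replicates 1, 3 and 4, as for ANXA5, and replicates 2 and 5 were within it. The fitted log2 differences were 0.92 (SE 0.24, edgeR adjusted p 0.0750) for ANXA1 and 0.71 (SE 0.24, adjusted p 0.202) for ANXA2, and neither passed.

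ANXA4, an annexin studied mostly in epithelia, had 7.78, 5.68, 15.0, 7.80 and 8.12 CPM in the repair libraries, against a lowest of 3.61, a median of 5.51 and a highest of 7.13 CPM in uninjured muscle. Only repair replicate 2 lay within the uninjured range, and in none of the 6 genes were the groups apart, beside 0.155% of all genes. The log2 difference was 0.69 (SE 0.25, edgeR adjusted p 0.229). ANXA6, a double-length annexin that gathers at the lesion of torn fibres, had 338.4, 290.0, 350.1, 292.7 and 363.8 CPM in the repair libraries, against 234.4, 284.6 and 328.6 CPM as the lowest, median and highest in uninjured muscle. DYSF had 424.1, 427.8, 530.0, 424.0 and 453.3 CPM in the repair libraries, against 324.1, 371.7 and 462.4 CPM in uninjured muscle. The groups overlapped for both, with log2 differences of 0.23 (SE 0.15, edgeR adjusted p 0.597) for ANXA6 and 0.27 (SE 0.17, adjusted p 0.608) for DYSF. All 6 fitted differences were above 0, with a median of 0.70, where 50.0% of all genes tested were above 0 and their median was 0.00. By edgeR 4 of the 6 had an unadjusted p under 0.05, beside 1360 of 11605 genes.

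Markers of fibroblasts and their progenitors, 10 of 10 in the files and none at 0 in a group, moved with ANXA1, ANXA2 and ANXA5 in these libraries. Their summed level was 2744.2, 954.7, 1657.5, 2387.4 and 1320.8 CPM in the repair libraries, against 465.6 to 1579.6 CPM in uninjured muscle, so the 3 libraries that were high for the annexins also had the 3 highest sums. Tenocyte markers, 6 of 8 in the files and none at 0 in a group, summed to 142.5, 42.7, 94.6, 763.9 and 107.2 CPM in the repair libraries, against 33.4 to 93.0 CPM in uninjured muscle. Adipocyte markers, 7 of 8 in the files and none at 0 in a group, summed to 1782, 726.5, 1890.7, 945.1 and 1192.5 CPM in the repair libraries, against 553.2 to 1499.1 CPM in uninjured muscle. By edgeR 5 of 7 adipocyte markers, 4 of 4 tenocyte markers and 1 of 10 fibroblast markers tested rose, and the adipocyte list had a median log2 difference of 1.78. Macrophage and monocyte markers, 11 of 14 in the files, summed to 50.9 to 100.7 CPM in the repair libraries, against 19.0 to 104.9 CPM in uninjured muscle. Of the 9 tested, 8 had fitted differences above 0, with a list median of 0.90. By edgeR 8 of the 9 had an unadjusted p under 0.05, beside 11.7% of all genes, and 0 were called. The fibroblast list had 10 of 10 above 0, with a median of 0.77. The part of these markers in the annexin result was not tested. In a bulk sample, fewer cells of a type and less RNA per cell cannot be told apart.

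Gel-treated long-term muscle had lower fitted values than repair alone for 4 annexins, but none of the 6 genes passed the test. ANXA1 had 8.37, 16.8, 13.2, 10.4 and 13.7 CPM in the gel libraries, against 48.7, 14.8, 36.2, 24.9 and 16.5 CPM in the repair libraries. ANXA5 had 46.6, 49.6, 47.9, 49.0 and 53.6 CPM in the gel libraries, against 123.8, 49.0, 116.5, 91.9 and 60.7 CPM in the repair libraries. The gel libraries lay close together for ANXA5, with a coefficient of variation of 5.36%, against 37.4% in the repair libraries, and the groups overlapped at repair replicates 2 and 5 for ANXA1 and at replicate 2 alone for ANXA5. The log2 difference was -1.20 (SE 0.30) for ANXA1 and -0.87 (SE 0.22) for ANXA5, which ranked 12 and 17 by p among 11605 genes, each at an edgeR adjusted p of 0.302.

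ANXA4 had 3.45, 3.34, 4.28, 3.91 and 10.1 CPM in the gel libraries, against 7.78, 5.68, 15.0, 7.80 and 8.12 CPM in the repair libraries. Gel replicate 5 alone reached into the repair range, and the other 4 gel libraries lay below it. The log2 difference was -0.84 (SE 0.29, edgeR adjusted p 0.302), and -1.27 without gel replicate 5. ANXA2 had 81.1, 37.6, 32.7, 31.1 and 35.3 CPM in the gel libraries, with gel replicate 1 far above the rest, and its log2 difference from the repair libraries was -0.55 (SE 0.28, adjusted p 0.371). Without gel replicate 1 that difference was -0.88.

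ANXA6 had 620.6, 301.2, 277.9, 304.1 and 340.0 CPM in the gel libraries. DYSF had 957.6, 365.3, 413.8, 365.3 and 471.1 CPM there. Gel replicate 1 was the highest long-term library for both genes, while for DYSF 3 of the other 4 gel libraries lay below every repair library, and for ANXA6 gel replicate 3 did. Gel replicate 1 also had the highest long-term myofibre marker sum, 275739.3 CPM, against at most 197559.1 CPM after repair and 233154.2 CPM in uninjured muscle. The part of these markers was not tested. The log2 differences of gel from repair were 0.14 (SE 0.17, edgeR adjusted p 0.677) for ANXA6 and 0.16 (SE 0.20, adjusted p 0.705) for DYSF, and without gel replicate 1 they were -0.11 and -0.18. Both also turned negative with library totals in place of TMM, -0.036 and -0.033.

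In that comparison edgeR called 0 of 6 genes and 0% of all genes tested, with 3 of the 6 and 1648 of 11605 genes at an unadjusted p under 0.05. DESeq2 and limma voom each called 0 of the 6. No member had groups that did not overlap, beside 1.4% of all genes. The median log2 difference of the 6 was -0.70, against -0.03 over all genes. The fibroblast marker sum was 939.8 to 1340.9 CPM in the gel libraries, against 954.7 to 2744.2 CPM in the repair libraries, with 10 of 10 below 0. Macrophage and monocyte markers summed to 41.2 to 94.8 CPM with the gel, against 50.9 to 100.7 CPM after repair, with 9 of 9 tested below 0. Adipocyte markers summed to 693.1 to 1088.5 CPM with the gel, against 726.5 to 1890.7 CPM after repair, with 7 of 7 below 0. Tenocyte markers summed to 41.1 to 102.2 CPM with the gel, with 4 of 4 tested below 0. After repair they summed to 763.9 CPM in replicate 4 and to 42.7 to 142.5 CPM in the other repair libraries. None of these markers was called, and their part in these values was not tested.

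**Figure D2:**
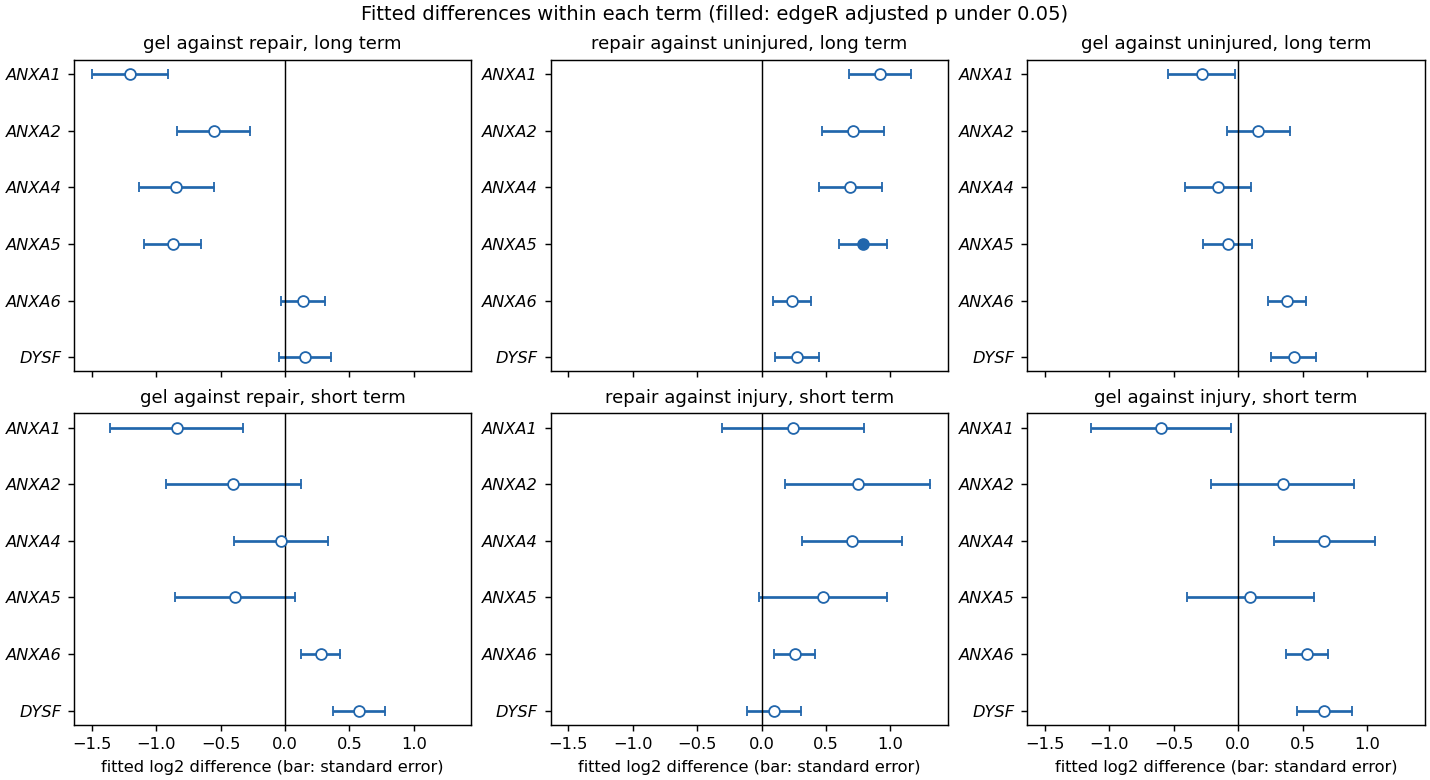
Fitted log2 differences of the 6 genes in the 6 comparisons within a term, with the standard error as a bar. ANXA5 in repair against uninjured muscle of the long term, at 0.79, is the only filled point, which marks an edgeR adjusted p under 0.05.

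Against uninjured muscle, the gel-treated long-term muscles had fitted differences a little below 0 for ANXA1, ANXA4 and ANXA5 and above 0 for ANXA2, ANXA6 and DYSF, and none of the 6 genes passed. In the gel group ANXA5 had a mean of 49.3 ± 2.64 CPM (SD, n = 5), against 51.9 ± 10.5 CPM for the uninjured group (SD, n = 10), a log2 difference of -0.08 (SE 0.19, edgeR adjusted p 0.841). ANXA1 had a log2 difference of -0.28 (SE 0.26), ANXA2 one of 0.16 (SE 0.24) and ANXA4 one of -0.16 (SE 0.26). ANXA2 was negative without gel replicate 1, at -0.19, and with library totals, at -0.021. ANXA6 had a log2 difference of 0.38 (SE 0.15, edgeR adjusted p 0.327) and DYSF one of 0.43 (SE 0.17, adjusted p 0.329), and without gel replicate 1 these were 0.12 and 0.09. The groups overlapped in all 6 genes, while they did not in 0.198% of all genes. By edgeR 0 of the 6 genes were called, beside 0.00862% of all genes, with 2 of the 6 and 1606 of 11605 genes at an unadjusted p under 0.05. DESeq2 and limma voom each called 0 of the 6.

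With the gel and repair muscles averaged as operated muscle, the 6 log2 differences from uninjured muscle lay between 0.27 for ANXA4 and 0.43 for ANXA2. The lowest edgeR adjusted p was 0.335, for ANXA6. The test called 0 of the 6 genes, beside 0.0259% of all genes, with 4 of the 6 and 1362 of 11605 genes at an unadjusted p under 0.05. DESeq2 and limma voom each called 0 of the 6.

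Set beside the uninjured muscle of the same animal code, ANXA1 and ANXA2 were higher in the operated muscle of 2 of 5 gel animals and 5 of 5 repair animals. ANXA5 was higher in 2 of 5 gel animals and 4 of 5 repair animals, and ANXA4 in 1 of 5 gel animals and 4 of 5 repair animals. The mean log2 difference within an animal for ANXA5 was -0.067 ± 0.44 with gel and 0.72 ± 0.64 with repair only (SD, n = 5 each). For ANXA1 it was -0.26 ± 0.65 with gel and 0.77 ± 0.64 with repair only. With the animal as a block, the log2 difference of gel from repair was -1.06 (SE 0.38) for ANXA1 and -0.82 (SE 0.32) for ANXA5, each at an edgeR adjusted p of 0.670, and 0 of the 6 genes were called. For ANXA6 and DYSF 4 of 5 animals of each treatment were higher in the operated muscle. Within animals DYSF differed by a mean of 0.43 ± 0.65 with gel, where 1 animal reached 1.53, and by 0.18 ± 0.19 with repair only.

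**Figure D3:**
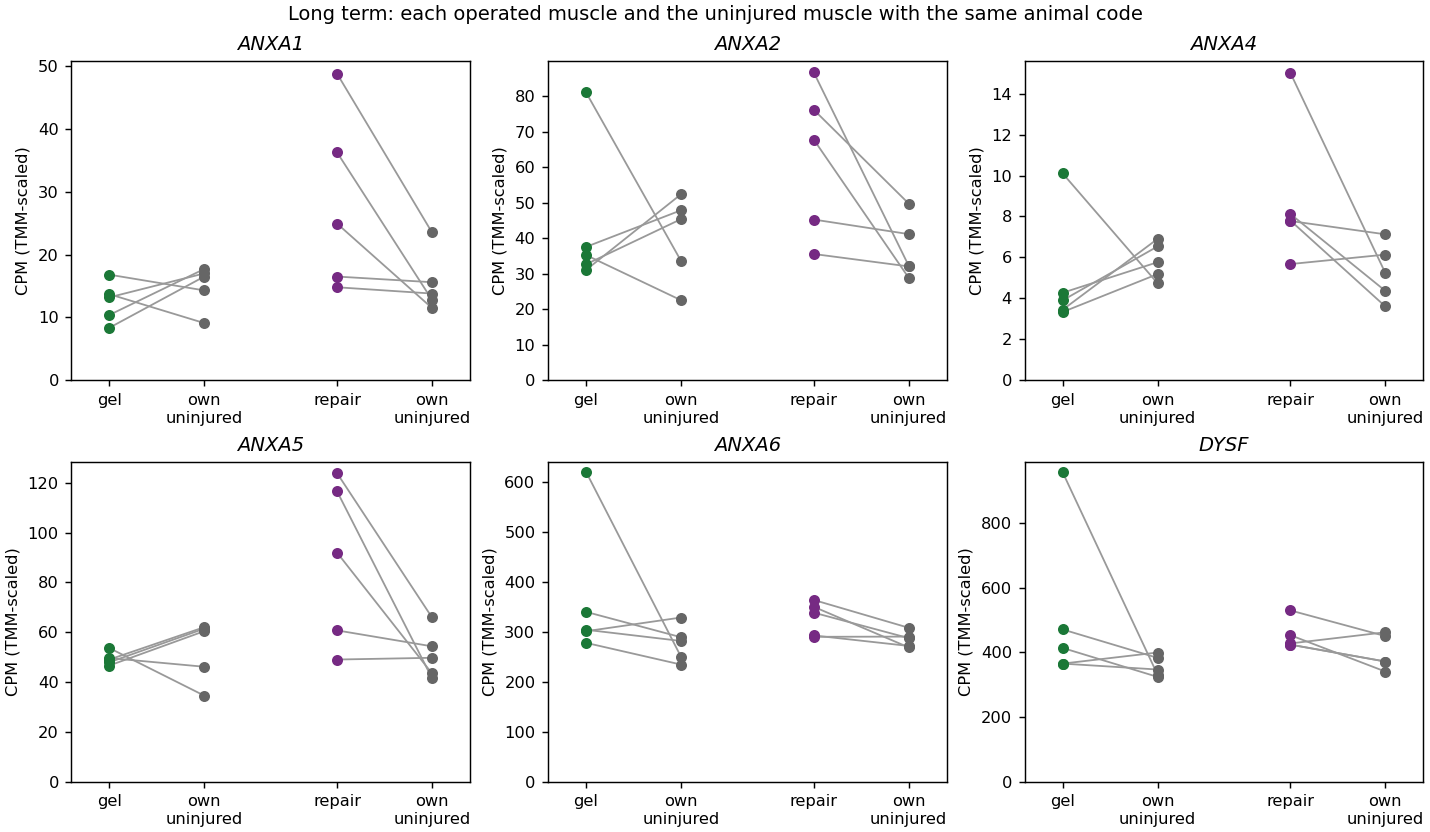
CPM, TMM-scaled, in each long-term operated muscle and, joined by a line, in the uninjured muscle with the same animal code. For ANXA1 and ANXA2, 2 of 5 gel lines run down to the uninjured muscle, and 5 of 5 repair lines do so.

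In the short term the first question was again what the gel added to the repair. ANXA1 had 76.1, 39.7, 62.8, 44.5 and 47.6 CPM in the gel libraries, against 103.2, 78.5, 81.7, 21.7 and 209.6 CPM in the repair libraries. ANXA2 had 359.8, 175.3, 345.6, 147.0 and 176.5 CPM in the gel libraries, against 348.7, 253.7, 247.0, 56.3 and 714.1 CPM in the repair libraries. ANXA5 had 200.6, 133.8, 141.5, 109.8 and 128.0 CPM in the gel libraries, against 192.6, 180.4, 155.2, 50.2 and 372.4 CPM in the repair libraries. In all 3 genes repair replicate 5 was the highest library of the term and repair replicate 4 the lowest, so the gel range lay inside the repair range. The log2 differences were -0.84 (SE 0.52, edgeR adjusted p 0.585) for ANXA1, -0.40 (SE 0.52, adjusted p 0.803) for ANXA2 and -0.39 (SE 0.46, adjusted p 0.784) for ANXA5. Without repair replicate 5 they were -0.37, 0.11 and 0.004.

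Fibroblast marker sums followed the same libraries. They were 3764.4 to 10195.8 CPM with the gel, against 1287.6 CPM in repair replicate 4, 84185.1 CPM in repair replicate 5 and 9168.8 to 22427.1 CPM in the other 3 repair libraries. Macrophage and monocyte markers, 11 of 14 in the files and none at 0 in a group, summed to 229.6 to 846.9 CPM with the gel, against 39.3 CPM in repair replicate 4 and 722.6 CPM in the highest repair library. The part of these markers in the annexin values was not tested.

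DYSF had 517.7, 643.0, 570.5, 460.4 and 530.0 CPM in the gel libraries, against 416.0, 460.4, 338.7, 418.8 and 239.3 CPM in the repair libraries. The groups met at 460.4 CPM without overlapping, as the groups of 2.17% of all genes did not overlap, and with library totals they overlapped. DYSF had a log2 difference of 0.58 (SE 0.20), the smallest p of the 6 genes, at an edgeR adjusted p of 0.413. ANXA6 had 369.7, 468.1, 456.4, 425.2 and 395.0 CPM in the gel libraries, against 407.3, 342.9, 353.3, 349.7 and 337.4 CPM in the repair libraries. All but repair replicate 1 lay below every gel library, and the log2 difference was 0.28 (SE 0.15, adjusted p 0.545).

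ANXA4 had 11.5, 10.9, 10.1, 11.3 and 11.5 CPM in the gel libraries, against 11.7, 18.2, 13.2, 4.19 and 10.5 CPM in the repair libraries. The gel libraries lay within a narrow band inside the wide repair range, and the log2 difference was -0.03 (SE 0.36, edgeR adjusted p 0.983). By edgeR 0 of the 6 genes were called, beside 0% of all genes, with 1 of the 6 and 1404 of 13526 genes at an unadjusted p under 0.05. DESeq2 and limma voom each called 0 of the 6.

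The second short-term question was how a repair compared with the injury left alone. ANXA1 had 21.7 to 209.6 CPM in the repair libraries, against 34.1, 40.9, 162.6 and 94.3 CPM in the 4 injury libraries. ANXA2 had 56.3 to 714.1 CPM after repair, against 121.7, 122.7, 328.2 and 196.4 CPM after injury alone, and ANXA5 had 50.2 to 372.4 CPM, against 74.1, 65.9, 265.3 and 136.4 CPM. Injury replicate 3 was the highest of its group for all 3, and the repair and injury groups overlapped in all 6 genes, while they did not in 1.91% of all genes. ANXA4 had 4.19 to 18.2 CPM in the repair libraries, against 3.62, 4.22, 11.2 and 9.24 CPM in the injury libraries. The log2 differences of repair from injury were 0.24 (SE 0.55) for ANXA1, 0.75 (SE 0.56) for ANXA2, 0.70 (SE 0.39) for ANXA4 and 0.48 (SE 0.50) for ANXA5, with edgeR adjusted p-values of 0.382 to 0.824.

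Injury replicate 3 and repair replicate 4 weighed on these values. For ANXA1, ANXA2, ANXA4 and ANXA5 they were the highest injury library and the lowest repair library. Leaving both out, a choice made with these data known, therefore raises those differences by construction, and the passes below are no separate support. Without both, the log2 differences of repair from injury were 1.35 for ANXA2 (edgeR adjusted p 0.0327), 1.18 for ANXA4 (adjusted p 0.0130) and 1.23 for ANXA5 (adjusted p 0.0182), and these 3 of the 6 genes passed, when 4556 genes, 33.3% of 13662, were called. Without repair replicate 5, the highest library, the differences were -0.26 for ANXA1, 0.20 for ANXA2 and 0.057 for ANXA5, and none of these was called. With every library, edgeR called 0 of the 6, beside 0% of all genes, with 0 of the 6 and 1973 of 13526 genes at an unadjusted p under 0.05. DESeq2 called 0 of the 6, beside 1.79% of all genes, and limma voom, run with sample quality weights, called ANXA4 and ANXA5, beside 33.6% of all genes. ANXA6 and DYSF had log2 differences of 0.26 (SE 0.16) and 0.09 (SE 0.21), and DYSF was negative without those 2 libraries, at -0.049. The macrophage and monocyte marker sum was 39.3 to 722.6 CPM after repair, against 33.6 to 308.3 CPM after injury alone, and its part was not tested.

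Gel-treated muscle was also set against the injury left alone. ANXA6 had 369.7 to 468.1 CPM in the 5 gel libraries, against 282.4, 317.9, 253.7 and 340.4 CPM in the 4 injury libraries. DYSF had 460.4 to 643.0 CPM in the gel libraries, against 317.3, 347.3, 312.8 and 420.2 CPM in the injury libraries. For both genes every gel library lay above every injury library, as the groups did not overlap in 7.36% of all genes. The log2 differences were 0.53 (SE 0.16) for ANXA6 and 0.67 (SE 0.21) for DYSF, each at an edgeR adjusted p of 0.168. DESeq2 called both, at adjusted p-values of 0.00148 and 0.0217, and so did limma voom, at 0.0140 and 0.0110, which called ANXA4 as well. Of all genes DESeq2 called 5.83% and limma voom 27.1%.

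The other 4 annexins had log2 differences of gel from injury of -0.60 (SE 0.54) for ANXA1, 0.34 (SE 0.56) for ANXA2, 0.67 (SE 0.39) for ANXA4 and 0.09 (SE 0.49) for ANXA5. ANXA5 was 0.61 without injury replicate 3. By edgeR 0 of the 6 genes were called, beside 0% of all genes, with 2 of the 6 and 2493 of 13526 genes at an unadjusted p under 0.05. Without injury replicate 3 and repair replicate 4, ANXA4 alone of the 6 passed, with a log2 difference of 0.94 (edgeR adjusted p 0.0423), when 2577 genes, 18.9% of 13662, were called. Injury replicate 3 was the highest injury library for ANXA4, so leaving it out raises this difference by construction. The comparisons with repair and with injury share the gel libraries, and those with uninjured muscle share that group.

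Several marker lists stood apart in the same libraries, with no list gene called by edgeR. Macrophage and monocyte markers summed to 229.6 to 846.9 CPM with the gel, against 33.6 to 308.3 CPM after injury alone, and 11 of 11 tested had fitted differences above 0, with a median of 2.26. Satellite cell and regenerating fibre markers, 7 of 10 in the files, summed to 312.7 to 4398 CPM with the gel, against 100.9 to 515 CPM after injury alone, and 7 of 7 were above 0. Cell cycle markers, 7 of 7 in the files, summed to 8.14 to 34 CPM with the gel, against 3.61 to 7.37 CPM after injury alone. Adipocyte markers went the other way, with 235.6 to 1165.6 CPM in the gel libraries, against 901.5 to 3147.2 CPM in the injury libraries, and 7 of 7 were below 0, with a median of -1.74. Myofibre markers, 11 of 16 in the files, summed to 96262.9 to 196789.7 CPM with the gel, against 309028.6, 320185.1, 63952.4 and 215136.6 CPM in the injury libraries. Of the 11 tested, 9 were below 0, with a median of -0.30. No marker of these lists was at 0 in a group, and their part in the values of the 6 genes was not tested.

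Between the terms ANXA1, ANXA2 and ANXA5 fell in both treatments, and ANXA4 fell with the gel. ANXA2 averaged 43.6 ± 21.1 CPM in long-term gel muscle and 240.8 ± 102.9 CPM in short-term gel muscle (SD, n = 5 each). In repaired muscle without gel it averaged 62.3 ± 21.3 CPM in the long term and 324.0 ± 242.5 CPM in the short term (SD, n = 5 each). Every long-term gel library lay below every short-term gel library for ANXA1, ANXA2, ANXA4 and ANXA5, while in repaired muscle without gel the terms overlapped for each, by short-term replicate 4 alone for ANXA1, ANXA2 and ANXA5.

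The fitted log2 differences of long from short term with the gel were -2.11 (SE 0.42, edgeR adjusted p 0.00017) for ANXA1, -2.47 (SE 0.43, adjusted p 2.91e-05) for ANXA2, -1.14 (SE 0.33, adjusted p 0.00548) for ANXA4 and -1.53 (SE 0.35, adjusted p 0.000704) for ANXA5. With repair only they were -1.81 (SE 0.41, edgeR adjusted p 0.000806) for ANXA1, -2.38 (SE 0.43, adjusted p 5.56e-05) for ANXA2 and -1.11 (SE 0.35, adjusted p 0.0101) for ANXA5. ANXA4 was not called after repair only, at -0.38 (SE 0.32, adjusted p 0.339), and ANXA5 after repair only was -0.70 without short-term repair replicate 5 (adjusted p 0.0924). Fitted on the groups compared alone, ANXA5 after repair only was not called (edgeR adjusted p 0.0706). With the replicate number as a block, neither ANXA1 (edgeR adjusted p 0.0658) nor ANXA5 (0.19) was called after repair only, beside 14.1% of all genes called lower.

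These counts stand against a broad background. With the gel 4 of the 6 genes fell, beside 26.5% of 12935 genes called lower and 48.3% called in either direction. With repair only 3 of 6 fell, beside 27.9% called lower and 46.2% called in either direction. Groups of the 2 terms did not overlap for 4 of the 6 genes with the gel, beside 28.5% of all genes, and for 0 of the 6 with repair only, beside 22.8%. With library totals in place of TMM the median log2 difference of all genes moved to -0.43, against -0.09, with the gel, and to -0.45, against -0.11, with repair only, and the share of calls that were higher moved to 24.3%, against 45.2%, and to 19.5%, against 39.5%. The part of scaling and depth in the falls of these annexins was not tested.

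ANXA6 and DYSF were not called between terms. With the gel their log2 differences were -0.20 (SE 0.16, edgeR adjusted p 0.314) and -0.08 (SE 0.20, adjusted p 0.760), and with repair only -0.13 (SE 0.16, adjusted p 0.523) and 0.27 (SE 0.20, adjusted p 0.282). With library totals ANXA6 was called lower in both, at -0.58 and -0.48, each close to the median shift of all genes and beside 35.1% of all genes called lower with the gel and 38% with repair only, and DYSF after repair only was -0.066. Without long-term gel replicate 1, both passed with the gel, at -0.43 for ANXA6 (adjusted p 0.00378) and -0.39 for DYSF (adjusted p 0.0426), beside 27.1% of all genes called lower. Fibroblast marker sums were 939.8 to 1340.9 CPM in long-term gel muscle, against 3764.4 to 10195.8 CPM in short-term gel muscle. Macrophage and monocyte marker sums were 41.2 to 94.8 CPM in long-term gel muscle, against 229.6 to 846.9 CPM in short-term gel muscle. The part of both in the annexin falls was not tested.

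Whether the gel's difference from repair itself differed between terms was tested as an interaction. The log2 values, long minus short, were -0.31 (SE 0.57) for ANXA1, -0.09 (SE 0.57) for ANXA2, -0.76 (SE 0.46) for ANXA4, -0.43 (SE 0.49) for ANXA5, -0.07 (SE 0.23) for ANXA6 and -0.35 (SE 0.29) for DYSF. The edgeR adjusted p-values were 0.496 to 0.968, and 0 of the 6 genes were called, beside 0.0155% of all genes, with 0 of the 6 and 1646 of 12935 genes at an unadjusted p under 0.05. DESeq2 and limma voom each called 0 of the 6. ANXA2 was positive, at 0.18, without injury replicate 3 and repair replicate 4 of the short term.

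**Figure D4:**
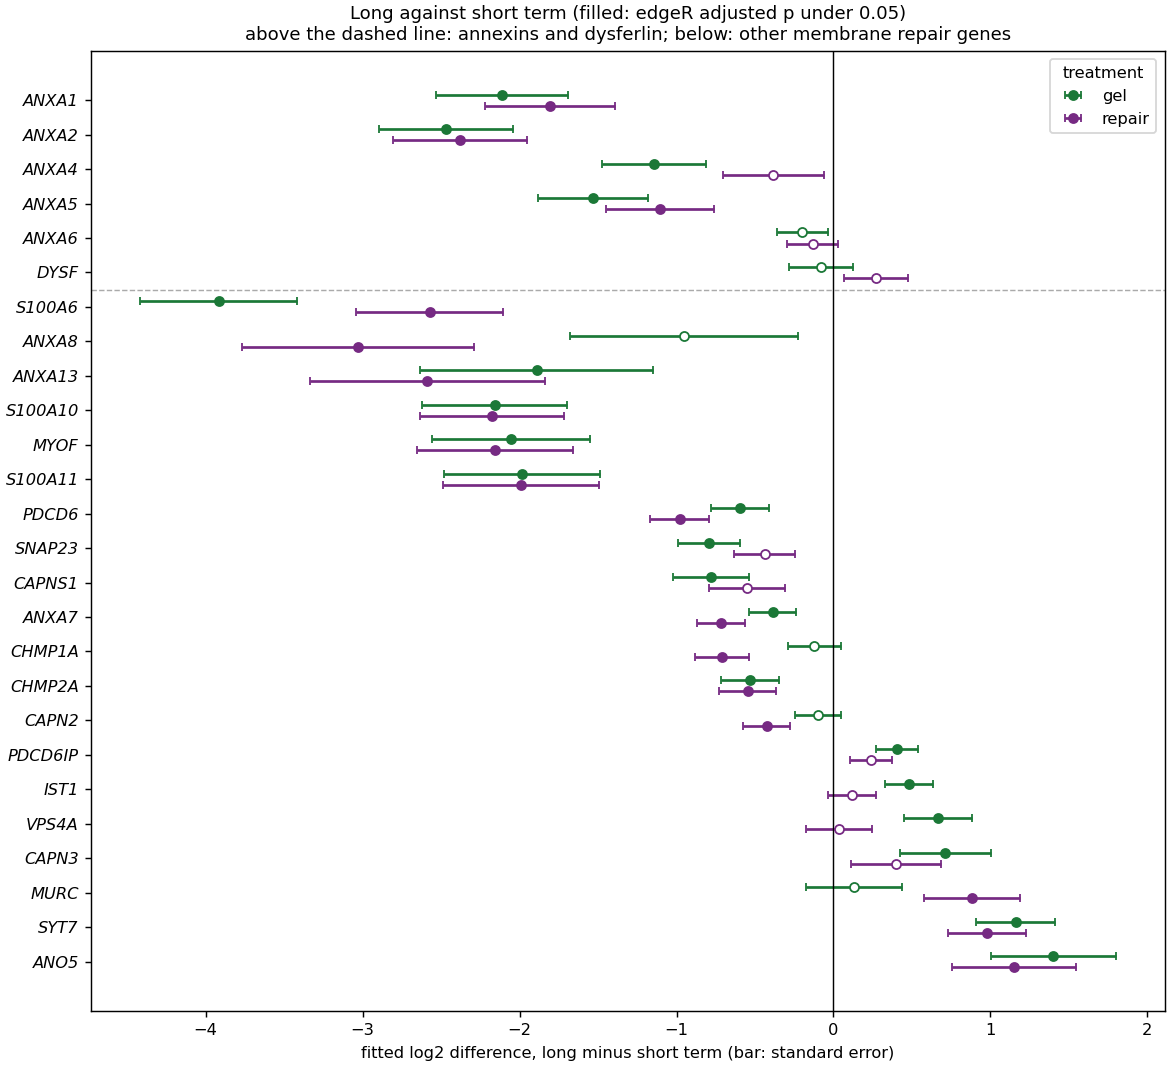
Fitted log2 difference of long minus short term with the gel and with repair only, with standard errors, for the 6 genes above the dashed line and for other membrane repair genes past the threshold in either treatment below it. Filled points have an edgeR adjusted p under 0.05, and ANXA1 and ANXA2 lie near S100A10, S100A11 and MYOF. ANXA5 fell less, with -1.53 for the gel and -1.11 for repair only.

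By group means, ANXA2 had all 3 long-term groups below all 3 short-term groups. It averaged 43.6 CPM with the gel, 62.3 CPM after repair and 38.6 CPM in uninjured muscle in the long term, and 240.8 CPM with the gel, 324.0 CPM after repair and 192.2 CPM after injury alone in the short term. ANXA5 and ANXA1 were split by term in the same way. ANXA1 averaged 12.5 CPM with the gel, 28.2 CPM after repair and 15.2 CPM in uninjured muscle in the long term, and 54.1 CPM with the gel, 98.9 CPM after repair and 83 CPM after injury alone in the short term. With the 6 groups of each gene put in order of their means, the only neighbouring groups whose libraries did not overlap, over all 6 genes, were long-term repair and short-term injury for ANXA2. ANXA4 had its lowest mean with the gel in the long term, 5.02 CPM, and its highest after repair in the short term, 11.5 CPM. DYSF and ANXA6 had their highest means in the gel groups, at 514.6 and 368.7 CPM in the long term and 544.3 and 422.9 CPM in the short term. In the long term this rests on gel replicate 1: without it the gel means were 403.9 CPM for DYSF and 305.8 CPM for ANXA6, below the repair means of 451.8 and 327.0 CPM.

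Across the short-term libraries the 6 genes fell into a pair of patterns, less clearly so in the long term. This is given as a description with no test. Spearman's rho of log2 CPM between ANXA1 and ANXA5 was 0.91 over the 20 long-term libraries and 0.89 over the 14 short-term libraries. ANXA2 had rhos of 0.68 with both in the long term, and of 0.83 with ANXA1 and 0.94 with ANXA5 in the short term. ANXA6 and DYSF had a rho of 0.60 in the long term and 0.81 in the short term. DYSF against ANXA1 gave -0.15 in the long term and -0.40 in the short term. In the short term ANXA4 lay between, with rhos of 0.53 with ANXA5 and 0.35 with ANXA6. In the long term its rhos were 0.73 with ANXA5 and 0.64 with ANXA1, close to those of ANXA2, and 0.42 with ANXA2. ANXA2 and ANXA6 had a long-term rho of 0.46. All values of a library share its scaling and its mix of cells.

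**Figure D5:**
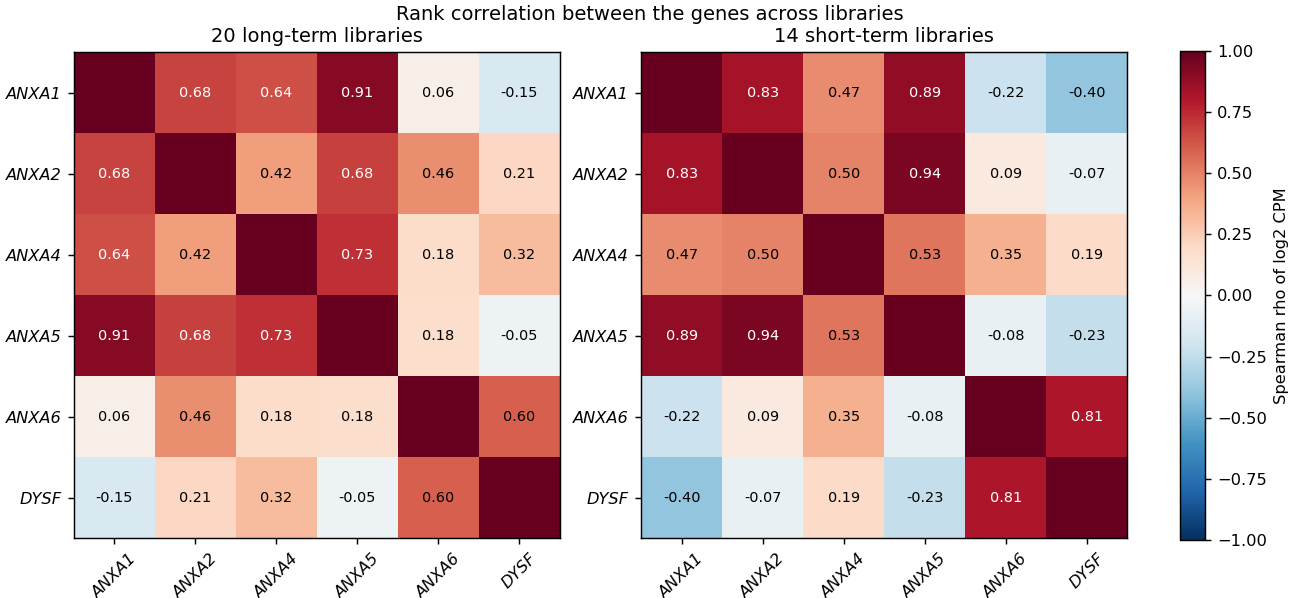
Spearman's rho of log2 CPM between each pair of the 6 genes over 20 long-term and 14 short-term libraries, shown by colour and printed in each cell. In the short term ANXA1, ANXA2 and ANXA5 form 1 block of high values and ANXA6 with DYSF another. In the long term ANXA4 also has 0.73 with ANXA5, above the 0.60 of ANXA6 with DYSF.

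Genes were also ranked by likeness to each member, as the smaller of the long-term and short-term rhos, among 9614 genes. ANXA2 was most like VIM, the intermediate filament gene of mesenchymal cells, with rhos of 0.97 in the long term and 0.94 in the short term, and then S100A10, its binding partner, with 0.94 and 0.90, and MARVELD1. ANXA1 was most like ANXA5, then YWHAZ and EFEMP1. ANXA5 was most like COL14A1, a collagen of fibroblasts and tendon, with rhos of 0.89 in the long term and 0.90 in the short term, then ANXA1 and MAP1B. ANXA4 was most like PRRX1, a transcription factor of mesenchymal progenitors, then MRC1, a macrophage mannose receptor, and ZNF385D. The nearest genes to ANXA6 were MPP2, UCP2 and DDB1, with lower rhos of at most 0.70, and those to DYSF were INPPL1, PBXIP1 and SEC14L5. DYSF and INPPL1, a lipid phosphatase gene, had rhos of 0.84 in the long term and 0.90 in the short term.

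Other genes of membrane repair were read from 6 lists: other annexins, other ferlins, S100 partners of annexins, dysferlin partners, the ESCRT machinery that pinches off damaged membrane, and ANXA1 receptors. Of 45 genes in the files, 41 were tested in the short term, 37 in the long term and 38 between terms. None of them passed in the 6 comparisons within a term, for operated against uninjured muscle or in the interaction. In these comparisons 1 to 9 of them had an unadjusted edgeR p under 0.05, beside 10.4% to 18.4% of all genes. The largest fitted differences in repair against uninjured muscle were those of the annexin partners S100A6 (0.62, SE 0.29, edgeR adjusted p 0.412) and S100A10 (0.57, SE 0.33), and the lowest those of CHMP2B (-0.22), an ESCRT subunit, and CAV3 (-0.18), the muscle caveolin. In long-term gel against repair, S100A6 (-0.86) and MYOF (-0.75), the ferlin myoferlin, were lowest and VPS4A (0.44), an ESCRT ATPase, and SMPD1 (0.44), acid sphingomyelinase, were highest. Gel against uninjured muscle ran from MYOF (-0.56) and VPS4B (-0.46) to CAPN1 (0.62), a calpain protease, and SMPD1 (0.55). Operated against uninjured muscle ran from CHMP2B (-0.26) and ANXA3 (-0.22) to CAPN1 (0.46) and S100A10 (0.40). Several of these extremes lean on long-term gel replicate 1. It held the highest gel value of VPS4A, 221.4 CPM, SMPD1, 95.3 CPM, and CAPN1, 262.1 CPM, and the lowest of VPS4B and CHMP2B, 5.34 CPM each. The gel means were 126.9 ± 53.2 CPM for VPS4A, 46.6 ± 27.4 CPM for SMPD1 and 135.9 ± 70.7 CPM for CAPN1 (SD, n = 5).

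In the short term, gel against repair ran from ANXA8 (-2.65, SE 0.97, edgeR adjusted p 0.416) and MICAL2 (-1.09) to BIN1 (0.65), a membrane-shaping protein of T-tubules, and CAV3 (0.59). Repair against injury ran from FER1L5 (-1.44) and CAV3 (-0.98) to ANXA13 (2.79, SE 0.91, adjusted p 0.322) and FPR1 (2.74), a formyl peptide receptor that binds ANXA1. Gel against injury ran from FER1L5 (-1.19) and MICAL2 (-1.04) to ANXA13 (2.32) and FPR1 (2.63). FPR1 was barely detected, with at most 0.945 CPM in any library and 0 counts in 3 of 4 injury libraries, so its fitted values depend on how zeros are handled. ANXA13 was also low, with at most 7 counts in any injury library and 0 in 1 of them. ANXA8 reached 114.7 CPM in 1 short-term repair library. Among these named list genes, DESeq2 called ANXA13 in repair against injury, and limma voom called FPR1, FER1L5 and CAV3 there and FPR1 and FER1L5 in gel against injury. These fits called 1.79% of all genes (DESeq2), 33.6% (voom, repair against injury) and 27.1% (voom, gel against injury). The interaction ran from S100A6 (-1.34) and MURC (-0.75) to ANXA8 (2.08) and MICAL2 (1.14).

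Between terms, long against short, 6 of these 38 genes rose and 10 fell with the gel, and 3 rose and 11 fell with repair only, beside 21.8% and 26.5% of all genes with the gel and 18.2% and 27.9% with repair only. S100A6, S100A10, S100A11, MYOF, ANXA7, ANXA13, PDCD6, a calcium sensor of ESCRT recruitment, and CHMP2A fell in both. ANXA13 was near the floor, with at most 5 counts in any long-term gel or repair library. S100A10 had log2 differences of -2.16 (SE 0.46, edgeR adjusted p 0.000362) with the gel and -2.18 (SE 0.46, adjusted p 0.000368) with repair only, and S100A6 had -3.92 and -2.57. MYOF had -2.06 with the gel and -2.16 with repair only. ANO5, a muscle scramblase gene, rose by 1.40 with the gel (SE 0.40, adjusted p 0.00480) and by 1.15 with repair only (SE 0.40, adjusted p 0.0187), and SYT7, a synaptotagmin of lysosome exocytosis, rose by 1.16 and 0.98. SNAP23 and CAPNS1 also fell, and CAPN3, PDCD6IP, VPS4A and IST1 rose, past the threshold with the gel. ANXA8, CAPN2 and CHMP1A fell, and MURC rose, past it with repair only. These differences of treatment were not called in the interaction. Long-term gel replicate 1 held the highest long-term gel value of CAPN3, 1254.1 CPM, VPS4A, 221.4 CPM, and IST1, 112.5 CPM, and the lowest of SNAP23, 9.53 CPM. Against the direction called, it was lowest for PDCD6IP, 57.8 CPM, and highest for CAPNS1, 500.1 CPM. The direction of the members of each list that were called held with library totals, but SYT7, MURC, CAPN3, PDCD6IP, VPS4A and IST1 were then not called.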

How the data were processed

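The values deposited by the authors are raw counts of reads per gene in whole numbers, 1 file per library. The submitters' processing notes name STAR, edgeR and OryCun2.0. Versions, the counter and strand use were not given in the sources available here. The files list 18210 entries each. In 1 file 26 names had become dates, and these entries were dropped (up to 0.163% of the counts). Another 15 entries, under 7 symbols, were merged. Titles set the groups. Animal codes in the file names differ between all libraries of a group, but no label states that these are separate animals. If some were not, p-values would reflect technical spread in part. None of 91 pairs within groups was identical.

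R 4.3.3 and edgeR 4.0.16 were used (expression filter, TMM, robust quasi-likelihood test, 2-sided), within each term or, between terms, over 34 libraries. Adjusted p-values are Benjamini-Hochberg values over every gene tested, threshold 0.05. Alternatives were DESeq2 1.42.0, limma 3.58.1 voom with sample quality weights, other scalings, no filter, blocks, all libraries or only the groups compared, and left-out libraries. The fits were tested on simulated counts. Log2 CPM used a prior count of 2. Replicate numbers did not pair libraries (correlations of deviations over 0.1 in 9 of 38 pairs), and animal codes had 6 of 10 such pairs.

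The members, lists and tests were chosen with earlier results of these data known. Named genes were all members, list genes past the threshold, the 2 largest rises and falls per comparison among list genes tested, and for likeness the 3 nearest genes with a symbol and a mean log2 CPM of at least 1. Coordinates are not given, since the gene table used for names is of another assembly.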

Additional observations from a re-analysis of the deposited data

Results flagged for a closer look

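Of 36 groups of libraries examined for a single library far from the others, 7 had one. Chance gives about 1 in 20 for independent groups. These groups share libraries between genes, so the 7 cannot be set against that rate. With library totals in place of TMM 2 of the 7 also stood out, ANXA2 and ANXA4 in long-term gel muscle. With TMM, long-term gel replicate 1 stood apart for 3 genes. It had 81.1 CPM of ANXA2 against 37.6 CPM in the next gel library, 620.6 CPM of ANXA6 against 340.0 CPM, and 957.6 CPM of DYSF against 471.1 CPM. With library totals it was still the highest gel library for ANXA6 and DYSF, but no longer past the rule. Long-term gel replicate 5 had 10.1 CPM of ANXA4 against 4.28 CPM in the next. Long-term repair replicate 3 had 15.0 CPM of ANXA4 against 8.12 CPM, and 530.0 CPM of DYSF against 453.3 CPM. Short-term repair replicate 1 had 407.3 CPM of ANXA6 against 353.3 CPM.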

How the results depend on the processing

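Under the alternatives, 1219 recomputed member differences kept their direction and side of the threshold, 22 newly passed it, 21 no longer passed it and 34 changed sign. The cause of these changes was not tested. The number of the 6 genes called in repair against uninjured muscle, long term, was 1, beside 1.01% of all genes. It became 2 with DESeq2 (2.02% of all genes). It became 0 with library totals (0.819%), voom (0.233%), only the groups compared (0.549%) and all 34 libraries in 1 fit (0.0696%). It was also 0 with the replicate block and the animal block (0% each), and 0 to 2 leaving out 1 library. In gel against injury the number was 0 and became 2 with DESeq2 (5.83% of all genes) and 3 with voom (27.1%). It became 1 without injury replicate 3 and repair replicate 4 (18.9%). In repair against injury 0 became 2 with voom (33.6%) and 3 without those libraries (33.3%). In repair, long against short term, 3 became 1 with the replicate block, where ANXA1 (edgeR adjusted p 0.0658) and ANXA5 (0.19) were not called. The share of all genes called lower there was 14.1%, against 27.9% without the block.

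With library totals, DYSF in repair, long against short term, was -0.066, ANXA6 and DYSF in long-term gel against repair -0.036 and -0.033, and ANXA2 in gel against uninjured -0.021. With voom these long-term values were -0.10, -0.20 and -0.073, ANXA1 in gel against injury was 0.18, and MICAL2 was 0.17 in short-term gel against repair and -0.54 in the interaction. With the replicate block, ANXA4 in short-term gel against repair was 0.10 and ANXA1 in repair against injury -0.12. Without injury replicate 3 and repair replicate 4, ANXA2 in the interaction was 0.18 and DYSF in repair against injury -0.049.

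Leaving out 1 library at a time gave ranges that crossed 0. In short-term gel against repair these were -0.67 to 0.11 for ANXA2, -0.25 to 0.20 for ANXA4 and -0.63 to 0.004 for ANXA5. In repair against injury they were -0.26 to 0.75 for ANXA1 and -0.035 to 0.19 for DYSF, and in gel against injury -0.14 to 0.61 for ANXA5. In long-term gel against repair they were -0.11 to 0.23 for ANXA6 and -0.18 to 0.26 for DYSF, and in gel against uninjured -0.19 to 0.25 for ANXA2. Between terms they were -0.39 to 0.02 for DYSF with the gel, and in the interaction -0.61 to 0.18 for ANXA2 and -0.35 to 0.02 for ANXA6.

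Counts over all genes moved more. DESeq2 and voom called 127 and 3 genes in short-term gel against repair (0 in edgeR), 242 and 4538 in repair against injury (0), and 788 and 3667 in gel against injury (0). In the long term they called 7 and 0 in gel against repair (0), 234 and 27 in repair against uninjured (117), 15 and 1 in gel against uninjured (1), and 125 and 22 in operated against uninjured (3). In the interaction they called 28 and 5 (2). All 34 libraries in 1 fit called 93, 626 and 1085 genes in the 3 short-term comparisons, and 9 in repair against uninjured. Blocks gave 0 there, 159 in gel against injury and 3236 in repair, long against short term (5972). Only the groups compared gave 63 in repair against uninjured, and leaving out 1 library 0 to 319.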
